A study of Mus musculus with 2 samples.

Results

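The genes described here are 10 genes of antigen presentation, chosen by name from the 19070 genes on the list of both sections. Class II presentation was represented by Cd74, H2-Aa, H2-Ab1, H2-Eb1 and Ciita, and class I presentation by B2m, Tap1, Tap2, Psmb8 and Psmb9. All 10 were on the list. They were measured with Visium HD, an assay that hybridises probe pairs to fixed, paraffin-embedded tissue and counts them as unique molecular identifiers (UMIs) on a grid of barcoded squares, here read as bins of 16 µm. The series holds 2 coronal brain sections of 10 µm, each from 1 male C57Bl6 mouse (C57BL/6J in the study's methods) that was 3 months old when injured, taken 3 days or 28 days after CCI (controlled cortical impact). In this injury model a driven tip hits the cortex through an opening in the skull, here over the right parietal cortex. Anaesthesia was with ketamine and medetomidine, pain relief with buprenorphine and local bupivacaine, and no test agent is named. Every level on the side away from the impact also comes from an injured animal.

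Class II molecules carry peptides of ingested protein to CD4 T cells and are normally restricted to professional antigen-presenting cells, which in the brain sit mainly in the meninges, the choroid plexus and around vessels, while resting microglia carry little. Class I molecules carry peptides of cytosolic protein to CD8 T cells and can be made by almost every cell. H2-Aa and H2-Ab1 encode the chains of I-A, H2-Eb1 the beta chain of I-E, Cd74 the invariant chain that guards the class II groove, and Ciita the coactivator that class II transcription depends on. B2m is the light chain of class I, Tap1 and Tap2 form the transporter that moves peptides into the endoplasmic reticulum, and Psmb8 and Psmb9 are the proteasome subunits that replace constitutive subunits in the immunoproteasome. C57BL/6 mice make no I-E alpha chain, so H2-Eb1 transcript in this strain has no partner to form a surface molecule.

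In the RefSeq annotation of GRCm38.p6, 7 of the 10 genes lie on chromosome 17 in 1 stretch of the major histocompatibility complex, from Psmb9 (chr17:34182030-34187330) and Tap1 (chr17:34187556-34197225) through Psmb8 (chr17:34198195-34201454), Tap2 (chr17:34204479-34216321), H2-Ab1 (chr17:34263227-34269418) and H2-Aa (chr17:34282744-34287823) to H2-Eb1 (chr17:34305867-34316674). B2m lies at chr2:122147687-122153082 and Ciita at chr16:10480014-10531064. Promoter sequence was at hand for 6 of the 10, and those of H2-Ab1, Ciita, Tap2 and Cd74 are not shown. The sequences below are shown because class II and class I promoters share letters while their transcripts were distributed differently in these sections. Each reads 5′ to 3′ and ends at the base before the start of the gene, H2-Aa from the minus strand (chr17:34287824-34287943), H2-Eb1 from the plus strand (chr17:34305747-34305866) and B2m from the plus strand (chr2:122147567-122147686). The last one is the whole plus-strand stretch between the divergent starts of Psmb9 and Tap1 (chr17:34187331-34187555). Capitals mark ATTGG or its complement CCAAT, the core letters of the Y box bound by NF-Y.
H2-Aa: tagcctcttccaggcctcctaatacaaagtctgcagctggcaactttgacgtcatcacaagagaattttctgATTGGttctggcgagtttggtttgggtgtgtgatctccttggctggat
H2-Eb1: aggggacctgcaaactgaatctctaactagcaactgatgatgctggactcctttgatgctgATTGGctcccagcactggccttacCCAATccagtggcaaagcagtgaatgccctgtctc
B2m: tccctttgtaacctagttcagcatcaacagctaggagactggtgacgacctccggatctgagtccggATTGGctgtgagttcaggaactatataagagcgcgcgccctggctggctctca
Psmb9 to Tap1: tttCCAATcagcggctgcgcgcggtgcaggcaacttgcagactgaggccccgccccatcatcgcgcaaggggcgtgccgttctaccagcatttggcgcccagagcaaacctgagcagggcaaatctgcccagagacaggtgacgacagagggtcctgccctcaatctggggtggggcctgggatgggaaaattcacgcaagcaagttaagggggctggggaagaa

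In windows from 250 bases before the start to the start itself, ATTGG on either strand occurred in 5 of the 6 promoters, Psmb8 being the exception, and in 33.8% of 32851 promoters of RefSeq genes. It lay 48 to 44 bases before the start of H2-Aa, 59 to 55 before that of H2-Eb1, with a CCAAT at 35 to 31, and 53 to 49 before that of B2m. TGACG, part of the X2 box, occurred in 4 of the 6 and in 17.8% of all promoters, and GCAAC, part of the X1 box, in 4 of the 6 and in 29.9%. A pair of GAAA with 2 bases between, as in interferon response elements, occurred in 1 of the 6, at B2m, and in 2.98% of all promoters. The TGACG matches on both strands of H2-Aa overlap. The Psmb9 and Tap1 windows overlap and share their matches. A match is a description of letters and not of a site.

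The sections held 121967 and 105589 bins under tissue with 120615873 and 82422389 UMIs, at a median of 836 and 596 UMIs per bin at 3 and 28 days. After bins under 100 UMIs were left out, the injured and opposite sides held 39116 and 80501 bins at 3 days, and 49478 and 53838 at 28 days. Bin columns below 130 at 3 days and below 240 at 28 days were taken as the injured side. The array cut the tissue on the injured side at 3 days, which had 130 columns against 289 opposite. Levels are in CPM, the UMIs of a gene per 1000000 UMIs of the same area. At 3 days neuronal markers summed to 3386 CPM (injured side) and 5673 CPM (opposite). Each group had 1 section, so the spread between animals is unknown and nothing was tested, and section, library and time cannot be told apart. Intervals are exact 95% intervals and cover counting error only. Fewer cells of a type and less RNA per cell cannot be told apart in such sums. Differences are log2 ratios with 0.5 UMI added to each area. A gene was compared where the areas together held 20 or more of its UMIs, and a gene counts as higher or lower from a 2-fold difference on.

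All 5 class II genes were at least 2-fold higher on the injured side at both times, and class I genes were split. At 3 days 5 of 5 class II and 3 of 5 class I genes were past 2-fold, where 10.5% of 16164 genes were. At 28 days 5 of 5 and 4 of 5 were, against 6.43% of 15640 genes. The median log2 ratio was 1.67 for class II and 1.19 for class I at 3 days, beside 0.14 over all genes, and 1.87 and 1.61 at 28 days, beside 0.04. The summed class II genes had a log2 ratio of 1.60 (1.54 to 1.66) at 3 days and 1.84 (1.77 to 1.91) at 28 days. The summed class I genes had 1.08 (1.02 to 1.14) and 1.40 (1.33 to 1.46). Class II exceeded class I by 0.51 (0.43 to 0.60) and 0.45 (0.35 to 0.54) on this scale. These counts rest on parts of the injured side. Without the lesion zone described below, 0 of 5 class II and 0 of 5 class I genes were past 2-fold at 28 days, where 1.89% of all genes were. Without the zone and the bins of choroid plexus and fibroblasts, 0 of 4 class II and 2 of 5 class I genes were at 3 days, where 4.79% of 15717 genes were, and 0 of 4 and 0 of 5 at 28 days, where 1.56% of 15003 were. At 3 days, in bins that also leave out white matter class II was below class I by -0.49 (-0.63 to -0.36). Choroid plexus markers summed to 271 CPM on the injured side at 3 days and 54.4 CPM opposite.

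Among the class II genes, Cd74 was at 49.1 CPM (injured) against 17.3 CPM (opposite) at 3 days. At 28 days it was at 70.6 against 17.1 CPM. Its ratio was thus 2.84-fold and later 4.12-fold, with the opposite side level. H2-Aa had 34.7 against 10.9 CPM and then 42.9 against 11.0 CPM, or 3.18-fold and 3.91-fold. H2-Ab1, its partner chain, had 23.9 against 7.02 CPM and then 26.7 against 7.88 CPM, and its ratio was 3.40-fold and 3.39-fold. H2-Eb1 went the other way, with 32.4 against 11.1 CPM and then 26.9 against 10.7 CPM, or 2.93-fold and 2.52-fold. Ciita was near the limit of counting, with 32 UMIs (injured) against 22 (opposite) at the early and 28 against 9 at the late time, so its log2 ratios of 1.67 (0.85 to 2.54) and 1.87 (0.80 to 3.19) are wide.

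Among the class I genes, B2m was at 43.5 CPM (injured) against 22.8 CPM (opposite) at 3 days, or 0.93 (0.84 to 1.03) as a log2 ratio. At 28 days it was at 70.3 against 23.7 CPM, or 1.57 (1.47 to 1.67). It was thus under 2-fold early and near 3-fold late. The transporter subunits differed from each other. Tap1 had 12.5 against 4.41 CPM and then 11.2 against 3.65 CPM, log2 ratios of 1.5 (1.30 to 1.70) and 1.61 (1.35 to 1.88). Tap2 had 31.4 against 17.3 CPM and then 28.9 against 17.4 CPM, log2 ratios of 0.86 (0.75 to 0.97) and 0.73 (0.60 to 0.87), and was the 1 member under 2-fold at both times. The immunoproteasome subunits were both past 2-fold. Psmb8 had 18.1 against 5.74 CPM and then 18.5 against 5.58 CPM, and Psmb9 had 13.9 against 6.08 CPM and then 16.9 against 5.14 CPM.

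**Figure D1:**
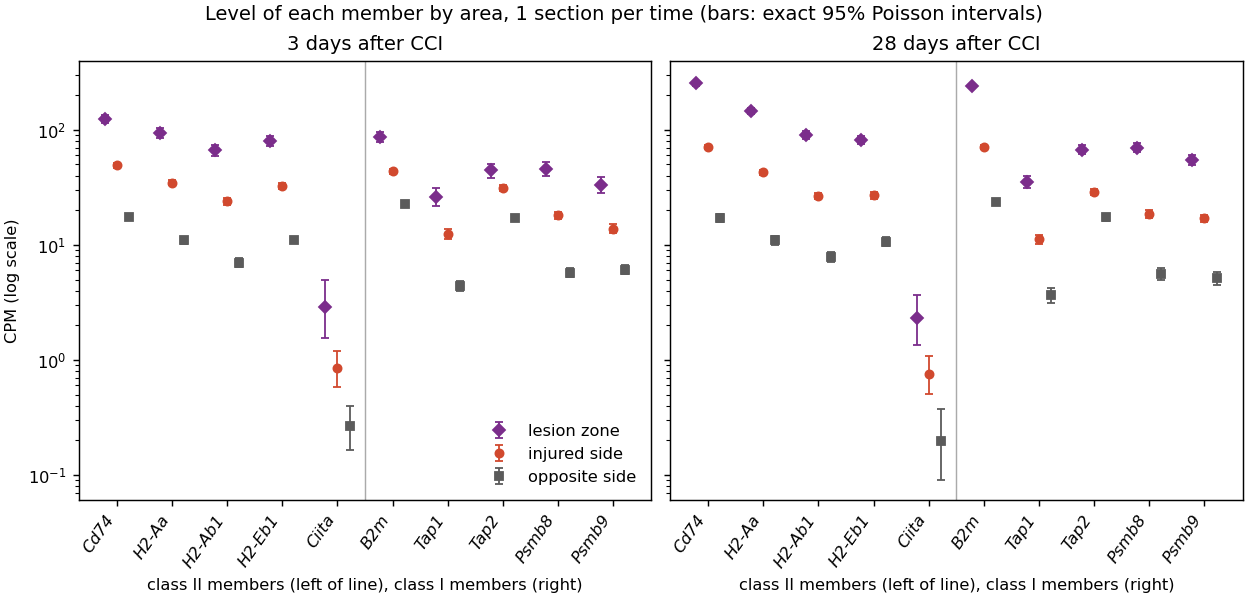
Level of each gene in CPM (log axis) on the opposite side, on the injured side and in the lesion zone. The zone is the part of the injured side rich in phagocyte genes. There is 1 section per time, with exact 95% Poisson intervals. Every gene is lowest on the opposite side and highest in the lesion zone at both times, and the Cd74 level in the zone is 124 CPM at 3 days and 253 CPM at 28 days.

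Between the sections, no member differed 2-fold on either side taken whole. The injured sides do not hold the same anatomy at both times, because the array cut the tissue at 3 days. On the injured side 0 of 5 class II and 0 of 5 class I genes were 2-fold higher at 28 than at 3 days, where 2.15% of 15587 genes were, and on the opposite side 0 and 0, where 1.52% of 16185 were. On the injured side the log2 ratio of 28 over 3 days was 0.69 (0.60 to 0.78) for B2m, 0.52 (0.44 to 0.61) for Cd74, 0.30 (0.20 to 0.41) for H2-Aa and 0.29 (0.12 to 0.46) for Psmb9. Counted per bin, B2m was at 0.34 and Cd74 at 0.17, while H2-Aa and Psmb9 turned to -0.05 and -0.07. With the lesion zone left out every member was lower at 28 days, with B2m at -0.41, Cd74 at -0.62, Tap1 at -1.01 and Psmb8 at -1.28. With bins of choroid plexus and fibroblasts left out instead, Cd74 was at 1.38 and H2-Aa at 1.05. The share of all genes past 2-fold is not given for these 2 settings. By CPM over the whole side the log2 ratio of 28 over 3 days was -0.27 (-0.39 to -0.14) for H2-Eb1. The others lay between -0.17 and 0.16. On the opposite side the class sums differed by 0.01 (-0.07 to 0.08) for class II and -0.02 (-0.09 to 0.05) for class I.

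The side ratios were compared in the same way. The log2 ratio of injured over opposite was larger at 28 than at 3 days by 0.64 (0.50 to 0.78) for B2m, 0.54 (0.39 to 0.69) for Cd74, 0.53 (0.25 to 0.81) for Psmb9 and 0.30 (0.11 to 0.49) for H2-Aa. It was smaller for H2-Eb1, by -0.21 (-0.41 to -0.02). For H2-Ab1, Ciita, Tap1, Tap2 and Psmb8 the interval of the difference held 0. Outside the lesion zone the side ratios were smaller at 28 days instead, by -0.47 (-0.63 to -0.30) for B2m, -0.60 (-0.78 to -0.42) for Cd74, -0.63 (-0.85 to -0.41) for H2-Aa and -1.24 (-1.58 to -0.91) for Psmb8. All 10 estimates were below 0 there, and the intervals of Ciita and Psmb9 held 0. This split was added after the data were seen. With choroid plexus, fibroblast and white matter bins left out on both sides too, class II had the other order. Its median log2 ratio of injured over opposite was 0.29 at 3 days and 0.64 at 28 days. That of class I was 0.84 and 0.35. Relative to Cd74, H2-Eb1 on the injured side counted 65.9 UMIs per 100 Cd74 UMIs (61.2 to 70.9) at 3 days and 38.1 (35.4 to 41.0) at 28 days. The opposite side had 63.9 and 62.4. H2-Ab1 went from 48.5 to 37.9 per 100 Cd74 UMIs on the injured side, and H2-Aa from 70.6 to 60.7.

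**Figure D2:**
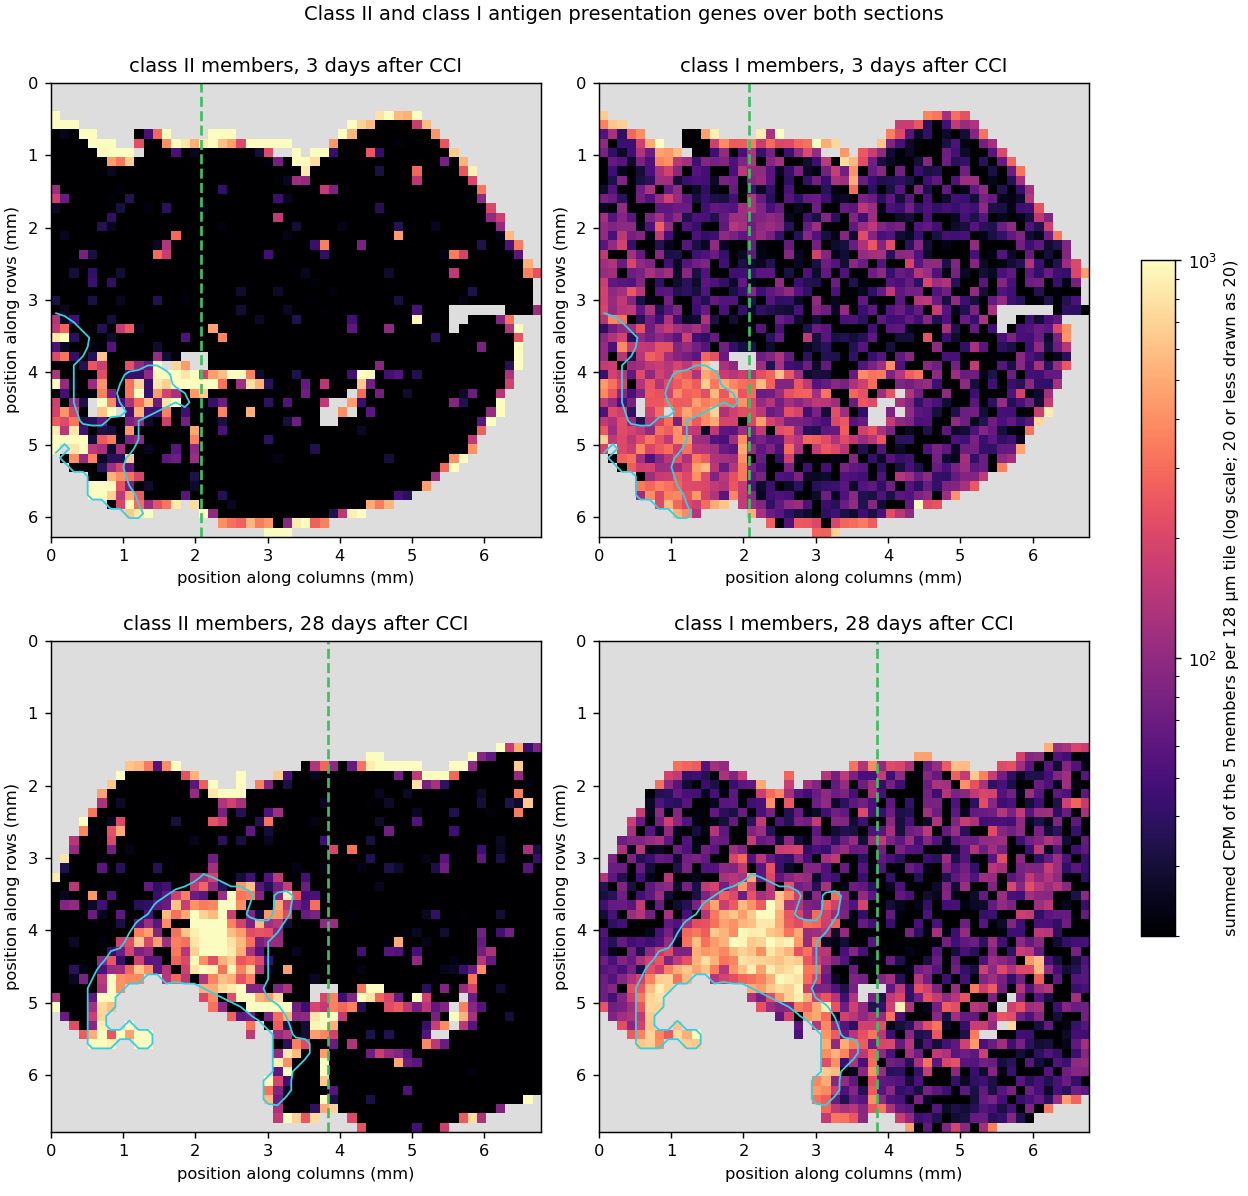
Summed CPM of the 5 class II (left) and 5 class I genes (right) per tile of 8 by 8 bins over both sections, on a log colour scale, with positions in mm, the border between the sides as a dashed line and the lesion zone outlined. Class II lies in narrow bands at the section surface, in a few inner patches and in the lesion, and class I is spread over the tissue and high in the lesion.

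The classes differed in how they were spread over the tissue. On the opposite side 12.9% of the 64 µm tiles at 3 days and 12.0% at 28 days held a class II UMI, against 48.9% and 44.5% for class I. The richest 1% of tiles held 45.6% of the class II UMIs at 3 days and 51.4% at 28 days, 8.65% and 8.39% of the class I UMIs, and 4.52% and 3.94% of the UMIs of all genes. The same share of tiles on the injured side held 30.1% and 27.3% of class II and 7.83% and 14% of class I.

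The surface of the opposite side held about as many class II UMIs as the rest of that side. The outermost 64 µm, or 4 bins, held 50.4% of the class II UMIs of the opposite side in 4.5% of its bins at 3 days and 47.7% in 2.29% at 28 days. The same band held 13.5% and 7.15% of the class I UMIs. Against tissue more than 16 bins deep, all 5 class II and all 5 class I genes tested at 3 days were 2-fold higher at the surface, as were 17.6% of 14886 genes, and at 28 days 4 of 4 and 5 of 5 were, as were 19% of 14273 genes. The size differed. The median log2 ratio was 4.96 and 5.92 for class II and 2.76 and 2.84 for class I at 3 and 28 days. Cd74 had 321 CPM at the surface and 8.57 CPM deep at 3 days, and 569 and 8.94 CPM at 28 days. B2m had 83.8 and 21.0 CPM, and then 84.9 and 22.8 CPM. In the band from 4 to 8 bins the class II medians were 1.17 and 1.99 and those of class I 0.73 and 0.28. In the band from 8 to 16 bins below the surface class II was lower than in the deep tissue, with a median log2 ratio of -1.87 at 3 days and -1.56 at 28 days, and class I was at -0.28 and -0.32. The deep tissue was not cleared of choroid plexus and fibroblast bins, which are described next.

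Bins were also sorted by their content. Fibroblast bins held at least 2 UMIs of Dcn, Lum, Col1a1, Col1a2 and Pdgfra, a list taken to mark meningeal and vascular fibroblasts. Pdgfra is not confined to fibroblasts. Choroid plexus bins held at least 2 UMIs of Folr1, Kl, Clic6, Kcnj13 and Sostdc1. The remaining bins were in neither kind, in white matter nor in the lesion zone. Surface bins of neither kind stayed among them. On the opposite side Cd74 had 510 CPM in fibroblast bins, 218 CPM in choroid plexus bins and 8.98 CPM in the remaining bins at 3 days, and 527, 150 and 10.6 CPM at 28 days. The median log2 ratio of fibroblast over remaining bins was 5.85 and 5.52 for class II and 2.85 and 2.65 for class I. That of choroid plexus over remaining bins was 4.88 and 3.79 for class II and 1.46 and 1.12 for class I. Markers of border macrophages, the macrophages of meninges and vessel walls, summed to 156 CPM in the fibroblast bins of the opposite side at 28 days against 7.62 CPM on the whole side. Their part in the class II level was not tested.

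**Figure D3:**
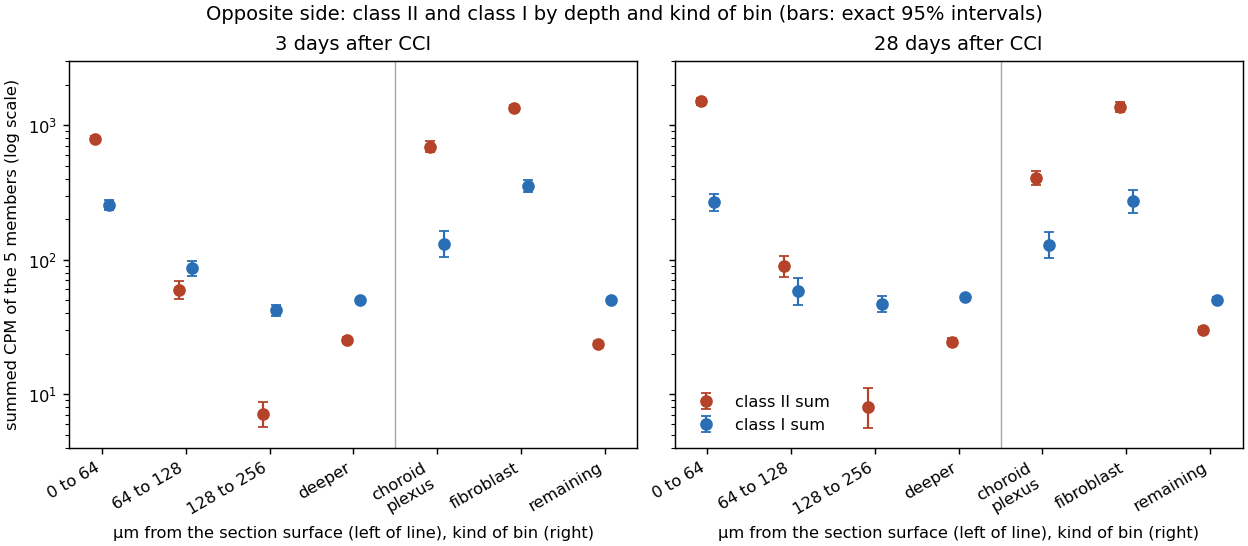
Summed CPM (log axis) of the class II and class I genes on the opposite side by distance from the section surface and by kind of bin, with exact 95% intervals. At 3 days class II is at 792 CPM in the outermost 64 µm and 7.09 CPM at 8 to 16 bins, and class I at 255 and 41.9 CPM.

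These compartments did not weigh the same on both sides. On the injured side at 3 days choroid plexus bins made up 2.36% of the bins and held 27.4% of the class II and 7.74% of the class I UMIs, and fibroblast bins made up 3.17% and held 29.7% and 11.2%. Opposite, these bins were 0.504% and 1.58% of all bins and held 11.1% and 39.7% of the class II UMIs. At 28 days choroid plexus bins held 4.61% of class II on the injured side and 13.0% opposite, in 1.29% and 0.958% of the bins, and fibroblast bins held 18.3% and 24.1%. Choroid plexus markers were at 271 CPM on the injured side against 54.4 CPM opposite at 3 days, and at 173 against 100 CPM later. Injured-side bins of both kinds include those in the lesion zone, so their shares and the share of the zone overlap. Within fibroblast bins the median class II log2 ratio of injured over opposite was -0.09 at 3 days and 0.18 at 28 days, and that of class I was 0.28 and 1.0. Within choroid plexus bins it was 0.39 and -0.28 for class II.

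In the remaining bins the order of the classes turned at 3 days. There 0 of 4 class II and 2 of 5 class I genes were 2-fold higher on the injured side, where 4.92% of 15574 genes were. The summed class II genes had a log2 ratio of 0.29 (0.17 to 0.41) and the summed class I genes 0.78 (0.71 to 0.85), a difference of -0.49 (-0.63 to -0.36). Cd74 had 10.2 CPM on the injured and 8.98 CPM on the opposite side, a log2 ratio of 0.18 (-0.02 to 0.38). Psmb8 had 12.0 against 4.64 CPM, or 1.38 (1.16 to 1.59), and Tap1 had 9.19 against 3.93 CPM, or 1.23 (0.99 to 1.47). At 28 days 0 of 4 and 0 of 5 genes were 2-fold higher in the remaining bins, where 1.65% of 14886 genes were, and class II was ahead again, at 0.67 (0.56 to 0.79) against 0.32 (0.23 to 0.41) for class I. Cd74 had 18.5 against 10.6 CPM there, and Psmb8 5.61 against 4.90 CPM. This split of the bins was chosen after the data were seen.

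The lesion zone was placed on 64 µm tiles of the injured side by their share of UMIs of 6 phagocyte genes (Cd68, Lyz2, Ctsz, Lgals3, Cd52 and Laptm5). This share, smoothed over squares of 5 by 5 tiles, had to exceed the 99th percentile found opposite. The zone took in every connected patch of at least 25 such tiles. Genes that phagocytes express are therefore high in it by construction, which includes several members. The zone held 7592 bins at 3 days and 13962 at 28 days, or 19.4% and 28.2% of the injured side. All 5 class II and all 5 class I genes were at least 2-fold higher in it than on the opposite side at both times, where 22% of 15361 genes were at the early and 17.2% of 14852 genes at the late time. The medians of class II and class I were 3.10 and 2.46 at 3 days, beside 0.15 over all genes, and 3.51 and 3.34 at 28 days, beside -0.01.

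Within the zone the time points differed most for B2m. B2m had 86.1 CPM at 3 days and 239.8 CPM at 28 days, and its log2 ratio to the opposite side was 1.92 and 3.34, a difference of 1.42 (1.23 to 1.61). Cd74 had 124 and 253 CPM, with a difference of 1.05 (0.86 to 1.23). Psmb9 had 33.4 and 54.5 CPM, with a difference of 0.95 (0.60 to 1.30). The other class I genes and H2-Aa differed by 0.59 to 0.69 on this scale. H2-Ab1 differed by 0.27 (-0.00 to 0.55) and H2-Eb1 by 0.10 (-0.15 to 0.34), whose levels in the zone were 79.7 and 82.2 CPM. Per 100 Cd74 UMIs of the zone H2-Eb1 counted 64.3 (56.1 to 73.5) at 3 days and 32.4 (29.5 to 35.6) at 28 days, H2-Ab1 53.3 and 35.4, and H2-Aa 75.6 and 57.6.

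Subunits of the immunoproteasome were read against the constitutive subunit each replaces. Opposite, 4.11 UMIs of Psmb8 were counted per 100 of Psmb5 at 3 days and 4.17 at 28 days. On the injured side it was 12.7 (11.7 to 13.8) and 14.5 (13.3 to 15.7), and in the zone 29.1 (24.8 to 34.0) and 65.7 (58.6 to 73.5). Psmb9 per 100 Psmb6 was 9.22 and 8.09 on the opposite side, 17.5 and 25.6 on the injured side, and 34.6 (28.6 to 41.8) and 78.2 (68.4 to 89.3) in the zone. Both pairs were thus more than 2-fold higher in the zone at 28 than at 3 days. Psmb10 per 100 Psmb7, the remaining pair, was 51.0 and 46.2 on the opposite side, 52.4 and 47.9 on the injured side, and 54.0 (46.0 to 63.3) and 77.7 (68.3 to 88.4) in the zone.

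Marker lists of cell types were read in the same areas. In the zone microglial markers summed to 910 CPM at 3 days and 1616 CPM at 28 days, against 243 and 232 CPM on the opposite side. Monocyte markers, 3 of 4 of which were on the list, summed to 49.9 and 13.9 CPM in the zone and 1.40 and 1.02 CPM opposite. Border macrophage markers summed to 69.4 and 50.9 CPM in the zone and 12.0 and 7.62 CPM opposite. Of this Ms4a7 had 14 and 33.3 CPM in the zone, and without it the list summed to 55.4 and 17.7 CPM in the zone against 11.1 and 6.97 CPM opposite. The sums of fibroblast markers were 446 and 315 CPM against 83.2 and 65.6 CPM. T cell markers summed to 10.0 and 12.2 CPM in the zone and 2.15 and 4.96 CPM opposite, and B cell markers to 5.12 and 2.44 CPM against 1.37 and 0.863 CPM. Of the T cell list, Cd4, carried by helper T cells, made up most of the level opposite at 28 days. It had 5.12 (3.25 to 7.68) and 2.31 (1.34 to 3.70) CPM in the zone and 1.46 (1.21 to 1.74) and 4.27 (3.69 to 4.92) CPM opposite. Without it the list summed to 4.90 and 9.91 CPM in the zone against 0.687 and 0.686 CPM opposite. NK cell markers summed to 2.67 and 6.65 CPM in the zone and 0.591 and 0.885 CPM opposite. Neutrophil markers summed to 60.8 and 66.1 CPM against 1.04 and 3.87 CPM, nearly all from S100a8 and S100a9, while Ly6g had 1 and 4 UMIs in the zone. Dendritic cell markers summed to 37.8 and 96.8 CPM in the zone and 35.6 and 33.0 CPM opposite. Itgax, which reactive microglia can also carry, had 2.89 and 62.2 CPM of this in the zone, and without it the list summed to 34.9 and 34.6 CPM against 35.4 and 32.4 CPM. Its members went different ways at 3 days. Flt3 had 1.56 CPM in the zone and 8.97 CPM opposite, Zbtb46, the most abundant, 21.6 and 22.4 CPM, Batf3 6.23 and 2.64 CPM, Cd209a 2.89 and 0.712 CPM, and Clec9a 1.56 and 0.338 CPM. The same genes also went different ways at 28 days. Zbtb46 had 15.2 CPM in the zone and 19.4 CPM opposite, Flt3 7.06 and 8.99 CPM, and Cd209a 0.407 and 0.443 CPM. Batf3 had 9.51 and 2.75 CPM, and Clec9a 1.22 and 0.398 CPM. Cd4, Itgax, Ms4a7, the dendritic cell and the neutrophil genes were picked out after their values were seen. The part of any of these in the levels of the members was not tested.

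Outside the zone, taken whole, the injured side kept a difference at 3 days and little of it at 28 days. At 3 days 5 of 5 class II and 2 of 5 class I genes were 2-fold higher there than on the opposite side, where 6.82% of 15962 genes were, with medians of 1.23 and 0.88. At 28 days 0 of 5 and 0 of 5 were, where 1.89% of 15190 genes were, with medians of 0.57 and 0.26. In the remaining bins the order of the times was the other way for class II. There 0 of 4 class II genes were 2-fold higher at each time, where 4.92% and 1.65% of all genes were. The class II medians were 0.29 at 3 days and 0.64 at 28 days, and those of class I 0.84 and 0.35. The zone held 31.1% of the class II and 23.6% of the class I UMIs of the injured side at 3 days, and 67.8% and 63.4% at 28 days.

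By distance from the zone, the order of the classes differed between bands at 3 days. Within 250 µm all 5 class II and all 5 class I genes were 2-fold higher than on the opposite side, where 18.7% of 15359 genes were, with medians of 2.56 and 2.04. From 250 to 500 µm 0 of 5 class II genes were, with a median of 0.62, against 5 of 5 class I genes, with a median of 1.39, where 9.12% of 15249 genes were. The class sums there were at 0.63 (0.47 to 0.79) and 1.36 (1.25 to 1.48). In that band Tap1 had 18.3 CPM against 4.41 CPM opposite, and Psmb8 had 21.9 against 5.74 CPM, while Cd74 had 26.8 against 17.3 CPM. From 500 to 1000 µm 4 of 5 class II genes were 2-fold lower than on the opposite side, where 6.95% of 15230 genes were, and the class I median was 0.25. Beyond 1000 µm 5 of 5 class II genes were 2-fold higher, with a median of 1.19, where 4.5% of 15487 genes were. Of the class I genes 0 of 5 were, with a median of 0.44. Fibroblast markers summed to 173 CPM in that band, and their part in these levels was not tested. The order at 250 to 500 µm depended on the reference. Set against the remaining bins of the opposite side, a reference chosen after the data were seen, the sums at 250 to 500 µm were at 1.61 (1.43 to 1.77) for class II and 1.53 (1.42 to 1.65) for class I, with overlapping intervals. At 500 to 1000 µm they were at -0.51 (-0.82 to -0.23) and 0.51 (0.36 to 0.65), and beyond 1000 µm at 2.11 (2.01 to 2.21) and 0.57 (0.48 to 0.67). Only the reference was narrowed in this way. The bands kept their choroid plexus, fibroblast and white matter bins, so the areas compared are unlike.

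At 28 days the counts near the zone turned on the reference. Within 250 µm 0 of 4 class II and 2 of 5 class I genes were 2-fold higher, where 5.07% of 14624 genes were, and both medians were 0.90. Against the remaining bins of the opposite side 4 of 4 and 3 of 5 were, where 6.91% of 14466 genes were. Here too the bands kept the choroid plexus, fibroblast and white matter bins that this reference leaves out. At 3 days that reference gave 4 of 4 and 5 of 5, where 20.3% of 15166 genes were. From 250 to 500 µm the medians were 0.54 for class II and 0.23 for class I. From 500 to 1000 µm 4 of 4 class II genes were 2-fold lower than on the opposite side, and 1 of 5 class I genes, Psmb8, was, where 3.73% of 14594 genes were. Beyond 1000 µm 2 of 4 class II genes were 2-fold higher, with a median of 1.07, and 0 of 5 class I genes, with a median of 0.34, where 3.29% of 14618 genes were. Against the remaining bins of the opposite side, the class II and class I sums were at 1.49 and 0.98 within 250 µm, 1.16 and 0.33 from 250 to 500 µm, -0.66 and -0.17 from 500 to 1000 µm, and 1.75 and 0.33 beyond. Unless the remaining bins are named, the zone and all bands share 1 reference, the whole opposite side. It includes its surface, which held about as much class II as the rest of that side.

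**Figure D4:**
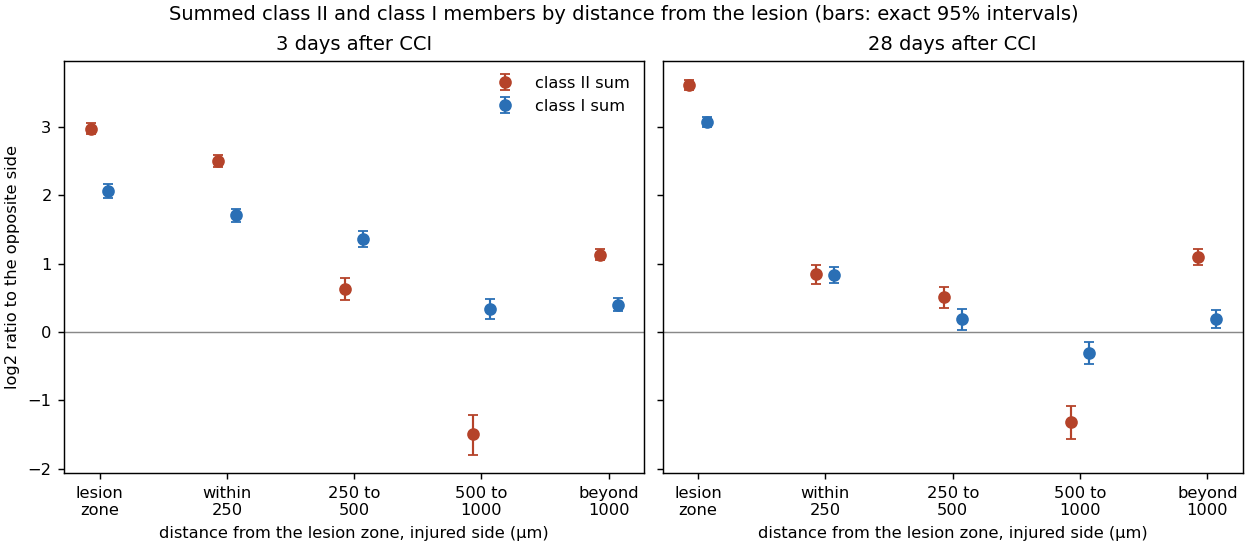
Log2 ratio of the summed class II and class I genes to the opposite side, in the lesion zone and in bands of distance from it on the injured side, with exact 95% intervals. At 3 days class I is above class II from 250 to 500 µm, at 1.36 against 0.63, and below it beyond 1000 µm, and at 28 days both are at 0.84 within 250 µm.

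White matter was taken as the bins whose share of UMIs of a list of myelin genes, such as Mbp, Mobp, Mag and Mog, summed over 3 by 3 bins, exceeded the 90th percentile found opposite. Neuronal markers, which entered that share only through its total, summed to 947 CPM in white matter of the opposite side at 3 days. The whole side had 5673 CPM. A lower neuronal level is thus in part built into the choice of these bins. These bins were shallow, with 249 UMIs per bin against 1117 elsewhere on the opposite side at 3 days and 242 against 905 at 28 days, so CPM and UMIs per bin differ in what they say. On the opposite side at 3 days the class II sum was lower in white matter than elsewhere, while the class I sum was higher on the CPM scale and the ratios of its genes were lower per bin. By CPM 3 of 5 class I genes were 2-fold higher, where 17.6% of 15117 genes were, and 4 of 5 class II genes were 2-fold lower, where 17.4% were. The medians were 1.0 and -1.38, beside -0.02 over all genes. The further genes of the pathways named below had another order. Of 17 further class II genes 8 were 2-fold higher in white matter and 0 lower, with a median of 0.87, and of 16 further class I genes 4 were, with a median of 0.36. At 28 days 9 of 16 and 5 of 15 were, where 17.1% of 14399 genes were, with medians of 1.14 and 0.36. Counted per bin instead, 0 of 5 class I genes were 2-fold higher, and B2m, Psmb8 and Psmb9 had log2 ratios of -1.16, -0.26 and -0.74, where the median over all genes was -2.19.

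By CPM, Psmb8 on the opposite side at 3 days had 19.9 CPM in white matter and 5.39 CPM elsewhere, a log2 ratio of 1.90 (1.38 to 2.36). Psmb9 had 15.5 and 5.85 CPM, or 1.42 (0.83 to 1.93), and B2m 44.4 and 22.2 CPM, or 1.0 (0.67 to 1.30). The class II genes rested on few counts in white matter. Cd74 had 7 UMIs there, or 3.49 CPM against 17.7 CPM elsewhere, a log2 ratio of -2.24 (-3.66 to -1.29), and H2-Aa had 4 UMIs, or 1.99 against 11.1 CPM. Ciita had 0 UMIs in white matter and 22 elsewhere, and the 3 counts that 0 allows would be 1.5 CPM, above its 0.272 CPM elsewhere, so no direction can be read for it. The class sums had log2 ratios of -1.90 (-2.56 to -1.36) for class II and 1.04 (0.84 to 1.23) for class I, 2.97 (2.37 to 3.56) apart. The bins elsewhere include the surface and the choroid plexus, which are rich in class II. The remaining bins leave out choroid plexus and fibroblast bins, but not the surface as such. Against them alone, a reference chosen after the data were seen, class II in white matter was at -0.90 (-1.56 to -0.36), with 12.5 CPM against 23.7 CPM, and class I at 1.18 (0.97 to 1.37).

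At 28 days the white matter of the opposite side showed the same order with a smaller gap. By CPM 3 of 5 class I genes were 2-fold higher, and none of them per bin, where 17.1% of 14399 genes were, and 1 of 4 class II genes, H2-Aa, was 2-fold lower, where 18.8% were. B2m had 62.2 CPM against 22.6 CPM, or 1.47 (1.12 to 1.79), with -0.43 per bin, and Psmb8 19.2 against 5.17 CPM. Cd74 had 17.7 against 17.1 CPM, or 0.08 (-0.62 to 0.64). The classes were apart by 1.47 (1.0 to 1.93) in the summed log2 ratios. Against the remaining bins alone class II was at 0.40 (-0.04 to 0.79), with 39.1 CPM against 29.9 CPM, and class I at 1.29 (1.05 to 1.52), so the interval of class II held 0.

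The gap between the classes in white matter was smaller on the injured side, on the CPM scale. At 3 days 3 of 5 class I genes by CPM, and 0 of 5 per bin, were 2-fold higher in white matter than elsewhere, where 11.1% of 14536 genes were, and the class I and class II sums were at 0.87 (0.73 to 1.01) and -0.41 (-0.61 to -0.22). That class I count was also 0 of 5 by CPM with the lesion zone left out, and 0 with white matter taken from the 95th percentile or from single bins. At 28 days 1 of 5 class I genes, Tap1 with 10 UMIs, and 1 of 5 class II genes, Ciita with 2 UMIs, were 2-fold higher, where 15% of 14518 genes were. The class sums were at 0.74 (0.43 to 1.02) and 0.08 (-0.29 to 0.40). Per bin 0 of 5 class I genes were 2-fold higher at 28 days too. By CPM with the 85th percentile 4 of 5 class I and 2 of 5 class II genes were. With the lesion zone left out 3 of 5 and 0 of 4 were. The share of all genes at these settings is not given. The zone held 1443 of these 2067 bins. Within it, white matter over other bins had medians of -0.63 for class I and -1.46 for class II, beside -0.12 over all genes. At 3 days they were 0.44 and -1.10, beside -0.18.

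**Figure D5:**
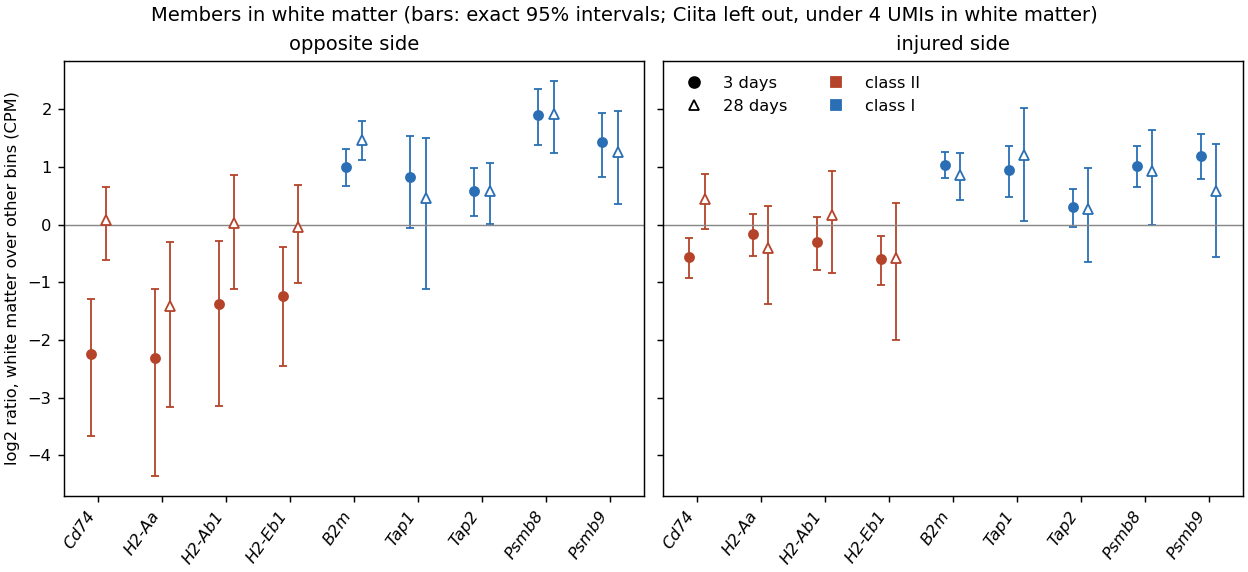
Log2 ratio of CPM in white matter over other bins for each gene, by side and time, with exact 95% intervals, Ciita left out for under 4 UMIs in white matter. On the CPM scale class I genes lie above 0 and class II genes mostly at or below it, and per bin the B2m ratio on the opposite side turns to -1.16 at 3 days and -0.43 at 28 days.

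Within white matter the summed class II genes differed more between the sides than the summed class I genes, on the CPM scale. At 3 days Cd74 had 33.9 CPM in injured-side white matter and 3.49 CPM in that of the opposite side, and H2-Aa had 31.2 and 1.99 CPM. All 4 class II genes tested and 1 of 5 class I genes were 2-fold higher, where 4.7% of 11920 genes were. Counted per bin 5 of 5 class I genes were too, and 3 of 5 by CPM with bins of at least 200 UMIs, the border 10 columns higher, the 85th percentile or 5 by 5 bins. The share of all genes at these settings is not given. Injured-side white matter bins were deeper, at 375 against 249 UMIs per bin, which the count per bin keeps. The class sums had log2 ratios of 3.08 (2.51 to 3.76) and 0.88 (0.65 to 1.12). At 28 days 2 of 3 class II genes and 2 of 4 class I genes were, where 3.26% of 10051 genes were, and the class sums were at 2.16 (1.63 to 2.71) and 0.97 (0.59 to 1.34). With bins of at least 200 UMIs or the 85th percentile 4 of 4 and 4 of 5 were, again without the share of all genes. Per bin 0 of 4 class I genes were. With the 95th percentile no class II gene and only 1 class I gene could be compared. Much of the white matter on the injured side lay in the lesion zone, 2401 of 5909 bins at 3 days and 1443 of 2067 at 28 days. Without the zone no class II gene had enough UMIs to be compared within white matter at 3 days, and 0 of 5 class I genes were 2-fold higher, where 1.64% of 11410 genes were. At 28 days 1 of 1 class II and 1 of 4 class I genes were, beside 6.13% of 9541 genes. Microglial markers summed to 785 CPM in white matter of the opposite side at 3 days and 1195 CPM in that of the injured side, and border macrophage markers to 7.98 and 10.4 CPM. In the bins outside white matter the side counts were those of the whole sides, 5 of 5 and 3 of 5 at 3 days, where 10.4% of 15992 genes were, and 5 of 5 and 4 of 5 at 28 days, where 6.98% of 15491 were.

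The classes were also read bin by bin, with each bin thinned to 300 UMIs and shallower bins left out. At 3 days 2.86% (2.69 to 3.04) of 34819 injured-side bins held a class II UMI and 1.24% (1.16 to 1.33) of 71583 opposite bins did. At 28 days it was 4.11% (3.92 to 4.31) of 39625 and 1.07% (0.98 to 1.17) of 44306. For class I the early shares were 4.06% and 1.95% and the late ones 4.75% and 1.90%. Unthinned, class II reached 5.39%, 2.30%, 6.38% and 1.81% in the same order, and class I 9.82%, 5.35%, 9.02% and 4.34%. The thinning left out 4297 injured-side and 8918 opposite bins at 3 days, then 9853 and 9532.

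Over each side taken whole, bins with a class II UMI more often held a class I UMI. At 3 days 12.2% of the injured-side bins with class II and 3.81% of those without held class I, and on the opposite side 12.6% and 1.82% did. At 28 days it was 15.9% and 4.27%, and 7.56% and 1.84%. A bin can hold parts of several cells. In class II bins of the opposite side, border macrophage markers had a log2 ratio to other bins of 3.72 at 3 days and 4.97 at 28 days, and fibroblast markers of 4.51 and 4.2. Microglial markers were at 0.53 and 1.32, and neuronal markers at -2.21 and -2.02. The share of bins with class II in the remaining bins of the opposite side was 0.758% at 3 days and 0.745% at 28 days. In the zone at 28 days, where 12.0% of the bins held class II, microglial markers were at 0.47 (0.36 to 0.58), border macrophage markers at 1.29 (0.66 to 1.85) and dendritic cell markers at 0.72 (0.27 to 1.14). Without Itgax the dendritic cell list was at -0.12 (-1.29 to 0.77).

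Other genes of the pathways were counted from lists. Of 16 further class I genes measured, 5 were 2-fold higher on the injured side at 3 days and 7 at 28 days, with medians of 0.66 and 0.81. Of 17 further class II genes 7 and 8 were, with medians of 0.85 and 0.67. Of all genes 10.5% and 6.43% were. None of either list was 2-fold lower. Over these lists and those of the constitutive proteasome and interferon signalling, the highest at 3 days were Nlrc5, the class I coactivator, with 6.34 CPM against 1.54 CPM and a log2 ratio of 2.03 (1.72 to 2.36), Ifi30, a lysosomal thiol reductase, with 27.9 against 8.51 CPM, and H2-DMb2, a chain of the class II peptide editor, with 0.825 against 0.265 CPM. At 28 days they were H2-Q7 and H2-Q6, nonclassical class I genes, with 10.2 against 1.24 CPM and 8.46 against 1.15 CPM, and, from the interferon list, Irf8, a transcription factor of myeloid cells, with 53.0 against 9.98 CPM. H2-Q6 and H2-Q7 are near-identical copies, so the split of their counts is uncertain. The lowest were Marchf1, a ligase that removes class II from the surface, at -0.06, and, from the interferon list, Ifngr2, a chain of the interferon gamma receptor, at -0.19 at 3 days, and Rfxap, a subunit of the factor that binds the X box, at -0.04, and the constitutive subunit Psmb5, at -0.06, at 28 days.

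The constitutive proteasome subunits Psmb5, Psmb6 and Psmb7 had a median log2 ratio of injured over opposite of 0.15 at 3 days and 0.01 at 28 days, and 0 of 3 were 2-fold higher. Of 8 genes of interferon signalling tested, 2 were 2-fold higher at each time, beside 10.5% and 6.43% of all genes, with medians of 0.72 and 0.69. Ifng itself had 7 and 6 UMIs on the injured and opposite sides at 3 days and 1 and 2 at 28 days, too few to compare.

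The genes whose pattern over tiles of 16 by 16 bins was most like that of each class were ranked among 12788 genes by the lower Spearman coefficient of both sections, as a description over 488 and 426 tiles of 1 section each that share its library and anatomy. For class II they included Anxa2, S100a11, Vim and Ifitm2, with coefficients of 0.55 to 0.57 at 3 days and 0.55 to 0.68 at 28 days. For class I they were Cd63, Vim, Msn, Tln1 and Gfap, with 0.71 to 0.74 and 0.75 to 0.79. Among the members themselves the median coefficient was 0.67 and 0.71 between class II genes, 0.43 and 0.40 between class I genes and 0.41 and 0.45 across the classes.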

How the data were processed

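Per the labels and methods, the authors hybridised a mouse probe set to 1 paraffin section per mouse on Visium HD slides and processed the reads with Space Ranger 4.0.1 (mm10). They deposited whole-number UMI counts per gene and 16 µm bin, not normalized, and these counts were used as deposited. Every column was mapped to its section, and columns mapped to none numbered 0. Bins under 100 UMIs were left out. UMIs were summed per area and divided by all UMIs of that area. Log2 ratios used a pseudocount of 0.5 UMI and genes with at least 20 UMIs over both areas, with exact conditional binomial intervals for ratios, exact Poisson intervals for levels and Clopper-Pearson intervals for shares. Depth was 120615873 and 82422389 UMIs. With 1 section per group no test was run and no p-value is given.

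The members, lists and tests were chosen with earlier results of these data known. Named genes were the 10 members, the 3 highest and 2 lowest genes of the pathway lists at each time, and the 5 genes most like each class. A few items are not reported here. The surface bands and remaining bins were chosen after the data were seen. H2-T22 and Psme2 of the class I list were not analysed here. The scripts were tested on simulated data. Sums and intervals were computed with scipy 1.17.1, numpy 2.4.6 and pandas 2.3.3 in Python 3.11.15, plots with matplotlib 3.10.9, and TMM factors alone with edgeR 4.0.16 in R 4.3.3. Alternatives covered the scaling, bin and gene filters, the pseudocount, the side border, the white matter definition, and areas left out.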

Additional observations from a re-analysis of the deposited data

How the results depend on the processing

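Each group held 1 section, so nothing here measures the spread between animals, and Ciita and the class II genes in white matter rest on few UMIs. No paired analysis was possible because each group has 1 section. Of the alternative counts and shares 351 stayed within 1.5 times the value given and 81 did not. Of the single-gene log2 ratios 1556 moved within their limits, 357 beyond them and 12 changed sign. Unless stated, the cause was not tested. Counts below are of genes at least 2-fold higher, given without the share of all genes at that setting.

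By UMIs per bin, 0 class I genes were higher in white matter over other bins on both sides at both times. The log2 ratio became -1.16 for B2m, -0.26 for Psmb8 and -0.74 for Psmb9 on the opposite side at 3 days, -0.48, -0.49 and -0.31 on the injured side at 3 days, -0.43 for B2m and -0.64 for Psmb9 on the opposite side at 28 days, and -0.75 for Tap1 on the injured side at 28 days. White matter bins were shallower, which this scaling keeps. Between sides within white matter class I counted 5 at 3 days and 0 at 28 days per bin. At 28 days it counted 1 with TMM scaling, median-of-ratios scaling, all bins, or the array edge left out.

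Leaving out the lesion zone, the side counts at 28 days were 0 for class II and 0 for class I, and so were those within other bins at 28 days. Within white matter at 3 days class I counted 0 of 5, and class II 0 of 0 compared, for want of UMIs, so no count was lost there. Within white matter at 28 days they were 1 of 1 and 1 of 4, with B2m at -0.38. White matter over other bins on the injured side then counted 0 class I genes at 3 days and 0 class II and 3 class I at 28 days. Leaving out choroid plexus and fibroblast bins, 28 over 3 days on the injured side counted 2 class II genes, and white matter over other bins on the injured side at 3 days 1. Leaving out the zone and these bins together, chosen after seeing the data, the side count at 3 days was 0 of 4 for class II, as it was within other bins, both were 0 for both classes at 28 days, and the early counts within white matter were 0 of 0 and 0 of 5, the late ones 1 of 1 and 1 of 4, with B2m at -0.38.

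For white matter over other bins, class II counted 1 on the injured side at 3 days with all bins, with a pseudocount of 5 and with single bins, and 1 on the opposite side at 3 days with bins of at least 200 UMIs, with a pseudocount of 5 and with the 95th percentile. On the injured side at 28 days class II counted 2 with at least 200 UMIs and with the 85th percentile, and class I 3 with at least 200 UMIs, 3 with a pseudocount of 5, 4 with the 85th percentile, 2 with single bins and 2 with 5 by 5 bins. On the injured side at 3 days class I counted 0 with the 95th percentile, where Psmb9 was at -0.88, and 0 with single bins.

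Between sides within white matter at 3 days, class I counted 2 with all bins and with single bins, and 3 with at least 200 UMIs, the border 10 columns higher, the 85th percentile and 5 by 5 bins. Class II counted 0 of 0 compared with the 95th percentile. At 28 days class II counted 4 with at least 200 UMIs, no gene minimum, the 85th percentile and 5 by 5 bins, and 0 of 0 compared with the 95th percentile. Class I counted 4 with at least 200 UMIs, the 85th percentile and single bins, and 0 of 1 with the 95th percentile.

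Shares of bins with class II without thinning and thinned to 200 UMIs were 5.39% and 2.15% (injured side) and 2.30% and 0.979% (opposite) at 3 days. They were 6.38% and 3.21% (injured) and 1.81% and 0.919% (opposite) at 28 days. Class I had 9.82% and 2.81% (injured) and 5.35% and 1.40% (opposite) at 3 days, then 9.02% and 3.61% (injured) and 4.34% and 1.35% (opposite). Thinning to fewer UMIs lowers any share by construction. With tiles of 8 by 8 bins 2 of the 5 genes most like class II were kept.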
